A study of Mus musculus with 9 samples.

Results

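K+ ion-charged nanostructures (K+ ICN) were set directly against Na+ ion-charged nanostructures (Na+ ICN) on mouse embryonic cortical neurons, as 3 libraries against 3, which are 6 of the 9 libraries in the series. The question is which genes depend on the identity of the ion that a charged nanostructure carries. The remaining 3 libraries came from the same kind of neuron with a non-charged peptide amphiphile (PA), a short peptide joined to a lipid tail that assembles into fibres. They serve here to show on which side of the uncharged level each ion lies. Per the labels all 3 groups were treated alike: cells settled overnight, 80 µl of material from a 5 mM stock was laid on them for a final 200 µM, and 50% of the medium was exchanged at 48 h. RNA was taken at 72 h. The groups share the cell type and the peptide treatment and are separated by charge and ion. The sources used here do not give strain, genotype, embryonic age or the ion concentration that the cells met. Replicates are described as biological, with no word on separate animals or dissections, so p-values reflect only the variation among these cultures.

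Outside neurons potassium is kept low and sodium high, and the potassium gradient sets the resting membrane potential. Raising potassium outside the cell depolarises neurons and opens voltage-gated calcium channels. The calcium that enters activates kinases and the factor CREB. These switch on immediate early transcription factors such as Fos, Nr4a1 and Npas4, and later secreted products such as the neurotrophin Bdnf and the granule proteins Scg2 and Vgf. Embryonic cortical neurons in culture meanwhile mature: the tubulins, stathmins and SoxC factors of growing neurites decline while synaptic proteins, channels and pumps increase.

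K+ ICN libraries held 20573886 to 21914112 counts and Na+ ICN libraries 17924988 to 20640622, with at least 1 count for 19441 to 19599 and 19078 to 19248 genes. The second principal component, with 14.8% of the variance, separated K+ from Na+, and the first, with 20.6%, separated both from PA. Neuronal markers were present in every library (16 of 16 tested), and their summed level was 5528 to 5628 CPM with K+, 5826 to 6009 CPM with Na+ and 6174 to 6205 CPM in PA. Tubb3 and Map2 carry the order of the ions: the other 14 markers summed to 2342 to 2370.2 CPM with K+ and 2259 to 2323 CPM with Na+, the opposite direction. Of the 16, 2 were called higher and 3 lower. The culture also held other cells. Astrocyte markers summed to 1503 to 1527 CPM with K+ and 1541 to 1614 CPM with Na+, microglial markers to 40.4 to 44.4 CPM with K+ and 34.5 to 44.7 CPM with Na+, fibroblast markers to 248 to 255 CPM with K+ and 225 to 233 CPM with Na+, endothelial and mural markers to 119 to 150.2 CPM with K+ and 107 to 115 CPM with Na+, and cell division markers to 1004 to 1026 CPM with K+ and 923 to 1002 CPM with Na+. Oligodendrocyte lineage markers summed to 169 to 180.2 CPM with K+ and 162 to 179 CPM with Na+. The early lineage marker Olig1 had 921 to 1318 counts a library, while Mog and Opalin, of mature cells, were at 0 in 8 of 9 libraries. Of endothelial markers, Kdr was counted in every library, and Cldn5 and Cdh5 were at 0 in 7 and 6. Kdr had 274 to 374 raw counts with K+ and 191 to 212 with Na+. Scaled to library totals it did not overlap between the ions, but it was not called. Genes of the mitochondrial genome took 4.93% to 5.18% of counts with K+ and 5.24% to 5.44% with Na+. Mitochondrial share and the sums for neurons, astrocytes, fibroblasts and endothelial and mural cells did not overlap between the ions, while the cell division sums overlapped on TMM-scaled totals. A sum can rest on few members. Of 22 astrocyte markers 4 were called lower and 1 higher, and their median log2 difference (K+ minus Na+) was 0.0077. The contractile genes Acta2 (1319 to 1635 counts with K+, 921 to 1093 with Na+) and Tagln (688 to 971 and 517 to 676) held most endothelial and mural counts. These are raw counts, and library totals were mostly larger with K+. Scaled to library totals, Tagln overlapped between the ions. Without Igfbp2 the fibroblast sums were 112 to 122 CPM with K+ and 100 to 105 CPM with Na+. What part these values have in the results below was not tested. In bulk RNA, fewer cells of a type and less RNA per cell cannot be told apart.

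Of 15183 genes tested, 999 (6.58%) differed between the ions at an edgeR adjusted p under 0.05. They divided evenly, 505 higher with K+ (3.33%) and 494 lower (3.25%). Each count of list members given above or below is to be read against these shares. Most differences were small: the median fold among the called genes was 1.18, 75 of them reached 1.5-fold, and 14 higher and 4 lower genes reached 2-fold. The larger differences lay mainly on the higher side, with 55 of those 75. When the test itself required more than a 1.2-fold difference, 44 genes passed, 39 higher and 5 lower. Against PA, 2403 genes (15.8%) differed with K+ ICN, 1237 higher (8.15%) and 1166 lower (7.68%). Na+ ICN and PA differed in 1648 (10.9%), 855 higher (5.63%) and 793 lower (5.22%). Those counts share the PA libraries. With upper-quartile scaling the divisions against PA were 1440 and 902 for K+ ICN, and 1042 and 552 for Na+ ICN. The median log2 difference over all genes tested was -0.00044. CPM are counts scaled to the TMM-adjusted library total, and log2 differences are K+ minus Na+ unless PA is named. The plot of difference against level places the genes described below.

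**Figure D1:**
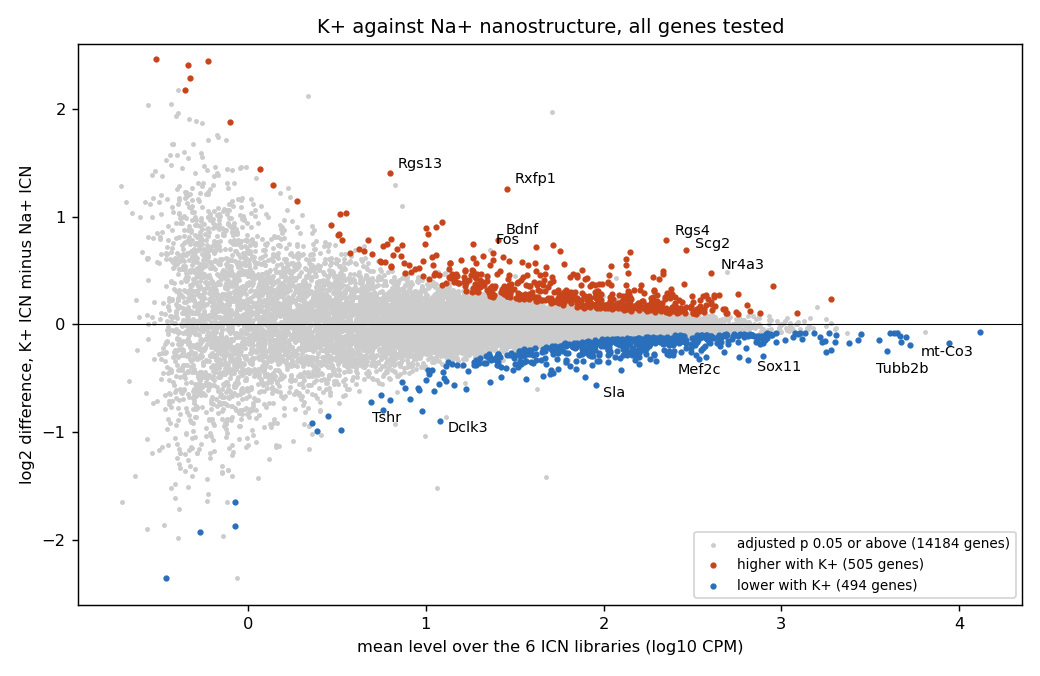
Log2 difference of K+ ICN minus Na+ ICN (vertical axis) against the mean level over the 6 ICN libraries (horizontal axis, CPM on a log scale) for the genes tested, with the 505 called higher and 494 called lower in colour; 8 genes lie outside the axes. The called genes reach farther above 0 than below it, with Rxfp1, Bdnf, Fos and Rgs4 among the labelled genes on the higher side.

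The largest difference by the naming rule was in Rgs13 (chromosome 1, 144137386 to 144177372, GRCm38.p6), an RGS protein that shortens G protein signals. It stood at 9.70, 7.62 and 10.1 CPM with K+, 3.83, 1.85 and 4.60 with Na+ and 3.12, 2.53 and 4.42 in PA. The K+ libraries were all above the other 6, which overlapped (2.64-fold, log2 difference 1.40, SE 0.24, edgeR adjusted p = 6.07e-04). Rxfp1 (chromosome 3, 79641600 to 79737951), the relaxin receptor, which raises cyclic AMP, differed with a smaller error. Its level was 41.1, 39.9 and 40.3 CPM with K+, 18.3, 16.1 and 16.3 with Na+ and 17.9, 16.8 and 17.5 in PA. K+ stood far above both other groups, and Na+ and PA overlapped (2.39-fold, log2 difference 1.26, SE 0.082, edgeR adjusted p = 7.65e-16).

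Calcrl, the receptor for CGRP and adrenomedullin, was 1.86-fold higher with K+ (log2 difference 0.89, SE 0.14, edgeR adjusted p = 1.04e-05). Its libraries stood at 11.9, 11.9 and 15.4 CPM with K+, 7.77, 5.49 and 7.68 with Na+ and 9.97, 9.47 and 10.7 in PA, so PA lay between the ions. Tmem255a had the same order (12.6, 15.6 and 16.1 CPM with K+ and 8.37, 8.13 and 7.24 with Na+, log2 0.90, adjusted p = 1.36e-06). Omg, a surface ligand of the Nogo receptor made by neurons as well as oligodendrocytes, stood at 35.5, 29.6 and 31.9 CPM with K+, 20.8, 17.5 and 18.1 with Na+ and 24.1, 24.6 and 24.2 in PA. No 2 of the groups overlapped (1.72-fold, log2 difference 0.78, SE 0.086, edgeR adjusted p = 2.88e-09). Npas2, a clock transcription factor that pairs with Bmal1, was 1.79-fold higher (log2 0.84, adjusted p = 2.20e-05), and Klhdc8a, a kelch-repeat protein, 1.68-fold (log2 0.75, adjusted p = 2.23e-04). The cyclic GMP-dependent kinase Prkg2 was at 6.80, 7.95 and 9.49 CPM with K+ and 4.81, 4.43 and 4.75 with Na+ (log2 0.79, adjusted p = 0.00189). Cacng5, an auxiliary subunit of AMPA receptors, was at 22.5, 21.4 and 25.0 CPM with K+, 14.0, 14.2 and 12.8 with Na+ and 15.7, 13.6 and 14.1 in PA (log2 0.75, adjusted p = 3.91e-07). For Cacng5, as for Rxfp1 and Rgs13, Na+ overlapped PA and the K+ libraries stood apart.

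Immediate early transcription factors were higher with K+ in 10 of 29 tested (6 without K+ ICN replicate 3) and lower in 1, against 3.33% and 3.25% of all genes. Their median log2 difference was 0.23. Fos (chromosome 12, 85473890 to 85477274), a subunit of AP-1, stood at 51.9, 49.5 and 53.6 CPM with K+, 31.4, 31.6 and 31.4 with Na+ and 31.3, 28.2 and 31.8 in PA. The 3 K+ libraries were all higher and the 3 Na+ libraries lay within the PA range (1.64-fold, log2 difference 0.71, SE 0.07, edgeR adjusted p = 1.65e-10). Nr4a1, an orphan nuclear receptor induced by calcium, stood at 56.1, 55.7 and 55.6 CPM with K+, 39.4, 39.0 and 37.6 with Na+ and 39.5, 35.7 and 40.8 in PA. Its relative Nr4a3 stood at 468, 458 and 481 CPM with K+, 351, 324 and 336 with Na+ and 338, 324 and 333 in PA. Both had the pattern of Fos, with K+ apart and Na+ overlapping PA (log2 0.53, adjusted p = 7.54e-08, and log2 0.48, adjusted p = 7.65e-16, edgeR).

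Other members took other orders. Npas4, a factor induced by calcium entry in neurons, was at 77.3, 67.1 and 78.0 CPM with K+, 55.9, 50.5 and 57.4 with Na+ and 49.6, 42.2 and 45.3 in PA. The groups were graded without overlap, PA lowest and K+ highest (log2 difference 0.44, SE 0.065, edgeR adjusted p = 3.37e-06). Fosl2, another AP-1 subunit, stood at 247, 253 and 253 CPM with K+, 189, 172 and 184 with Na+ and 217, 202 and 217 in PA, with PA between the ions (log2 difference 0.47, SE 0.037, edgeR adjusted p = 3.01e-13). Against PA, Fosl2 was higher with K+ (log2 0.24, adjusted p = 1.63e-06) and lower with Na+ (log2 -0.22, adjusted p = 2.17e-05), from the same PA libraries. Klf6, a zinc finger factor, was higher by a log2 difference of 0.20 (edgeR adjusted p = 8.48e-05).

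The remaining calls in the list were less secure. The AP-1 subunit Junb was 1.44-fold higher (log2 0.53, adjusted p = 0.0145, a call lost without K+ ICN replicate 1 or 3 or Na+ ICN replicate 2, with adjusted p up to 0.142). The small Maf factor Maff was 1.5-fold higher (log2 0.59, adjusted p = 0.00879, a call lost without K+ ICN replicate 1 or 3 or Na+ ICN replicate 1, with adjusted p up to 0.0924). Crem, a relative of CREB, was 1.29-fold higher (log2 0.36, adjusted p = 0.0062, a call lost without K+ ICN replicate 3, with adjusted p up to 0.0527). Nfil3 differed by 0.16 (a call kept in 9 of 17 other settings, with adjusted p up to 0.201). Bhlhe40, a repressor, was the member that was lower (log2 -0.28, adjusted p = 0.0391, a call kept in 7 of 17 other settings, with adjusted p up to 0.243).

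Several classical activity genes did not differ by the test. Egr1, a zinc finger factor, was at 14.7, 15.3 and 16.2 CPM with K+ and 11, 13.0 and 13.5 with Na+ (log2 difference 0.30, SE 0.11, edgeR adjusted p = 0.106). Arc, a regulator of AMPA receptor traffic, was at 3.44, 2.07 and 3.58 CPM with K+ and 3.99, 2.97 and 2.64 with Na+, low in every library (log2 difference -0.076, SE 0.25, edgeR adjusted p = 0.933). Its direction turned without K+ ICN replicate 2 or Na+ ICN replicate 1. Nr4a2 was at 70.6, 69.3 and 67.8 CPM with K+ and 65.3, 66.8 and 65.1 with Na+ (adjusted p = 0.535, edgeR) and Jund at 127, 123 and 133 CPM with K+ and 129.5, 128 and 134 with Na+ (adjusted p = 0.79). Jund overlapped between the ions while both stood above PA, at 109, 92.8 and 96.1 CPM.

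Among 25 activity-induced intracellular effectors, 4 were higher and 1 lower (median 0.089). Rasgrp1, which loads Ras with GTP, was at 21.7, 27.7 and 26.8 CPM with K+ and 16.1, 16.3 and 16.7 with Na+ (log2 difference 0.63, SE 0.098, edgeR adjusted p = 6.21e-06). Cdkn1a, the kinase inhibitor p21, was at 62.9, 54.4 and 59.1 CPM with K+, 41.7, 45.2 and 43.6 with Na+ and 37.5, 34.1 and 36.0 in PA, graded from PA through Na+ to K+ (log2 difference 0.44, SE 0.067, edgeR adjusted p = 5.12e-06). The other higher members were the clock gene Per1 (log2 0.25, adjusted p = 3.54e-05) and the small GTPase Rheb (log2 0.23, adjusted p = 2.67e-04). Syt4, a synaptotagmin of neuropeptide vesicles, was lower (log2 -0.14, adjusted p = 2.31e-04). Plk2, a kinase that scales synapses down, overlapped between the ions (198, 186 and 189.8 CPM with K+ and 202, 189 and 193 with Na+, edgeR adjusted p = 0.817).

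**Figure D2:**
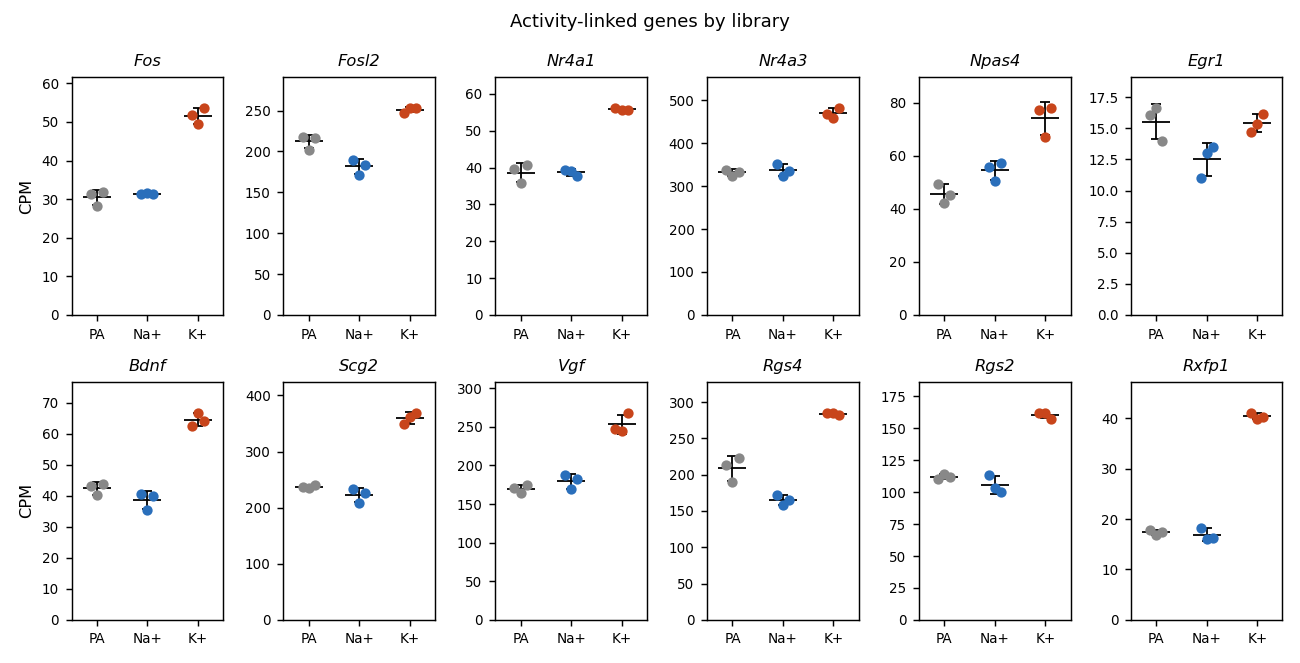
Level in each library (CPM, linear axes from 0) of activity-induced genes in PA, Na+ ICN and K+ ICN, with each point a library and the mark and error bar the mean and SD of 3. The K+ libraries of Fos, Bdnf and Scg2 lie above all 6 others, and for Fos and Bdnf the Na+ libraries overlap PA.

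Secreted peptides, granule proteins and growth factors were higher with K+ in 11 of 36 tested (median 0.17). None was lower by edgeR at an adjusted or an unadjusted p under 0.05, none by DESeq2 and 1 by limma voom. Bdnf (chromosome 2, 109674700 to 109727043), the ligand of the receptor TrkB, stood at 62.7, 66.7 and 64.2 CPM with K+, 40.6, 35.5 and 39.9 with Na+ and 43.3, 40.1 and 43.9 in PA. K+ was apart and Na+ overlapped PA (1.67-fold, log2 difference 0.74, SE 0.065, edgeR adjusted p = 7.94e-12). Scg2 (chromosome 1, 79434366 to 79440026), a secretogranin of dense-core granules, stood at 349, 362 and 369 CPM with K+, 233, 209 and 226 with Na+ and 236, 235 and 240.0 in PA. All 3 K+ libraries lay above the rest (1.62-fold, log2 difference 0.69, SE 0.035, edgeR adjusted p = 5.29e-20).

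Vgf, a precursor of several neuropeptides, was at 247, 245 and 268 CPM with K+, 188, 169 and 182 with Na+ and 171, 165 and 174 in PA (log2 difference 0.49, SE 0.039, edgeR adjusted p = 8.80e-13). Adcyap1, which encodes the peptide PACAP, was at 51.6, 46.5 and 49.6 CPM with K+ and 35.3, 32.9 and 31.5 with Na+ (log2 difference 0.57, SE 0.073, edgeR adjusted p = 1.30e-07). The granule protein Chgb was at 206, 212 and 219 CPM with K+, 169, 166 and 175 with Na+ and 148, 157 and 158 in PA, graded from PA through Na+ to K+ (log2 difference 0.32, SE 0.037, edgeR adjusted p = 1.43e-08). The enzymes that cut peptide precursors also differed, Pcsk1 by 1.38-fold (log2 0.46, adjusted p = 7.74e-05) and Pcsk2 by 1.17-fold (log2 0.23, adjusted p = 0.00264). Their chaperone Scg5 (log2 0.17, adjusted p = 0.00262) and the granin Scg3 (log2 0.13, adjusted p = 0.00482) were higher by less. Npy, a peptide of interneurons, had another order: 22.7, 22.7 and 20.1 CPM with K+, 17.8, 16 and 14.5 with Na+ and 23.6, 20.8 and 20.2 in PA. There Na+ stood below and K+ overlapped PA (log2 difference 0.44, SE 0.097, edgeR adjusted p = 0.00163). Igf1 was 1.29-fold higher (log2 0.37, adjusted p = 0.00195, a call lost without K+ ICN replicate 3, with adjusted p up to 0.0522). The exopeptidase Cpe (548, 539 and 554 CPM with K+ and 571, 555 and 572 with Na+, adjusted p = 0.37) and somatostatin, Sst (176, 156 and 161 CPM with K+ and 158, 159.5 and 157 with Na+, adjusted p = 0.583), were not called.

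CREB, the factor that calcium and cyclic AMP activate, binds the cyclic AMP response element TGACGTCA, a palindrome. Promoters of the tested genes were searched for these letters in the 250 bases before the start, taken from RefSeq (GRCm38.p6), which has entries for 11735 of the tested genes (77.3%). They were present for 350 genes (2.98%). A gene with several promoter entries was counted once, if any of them held the letters. Among genes higher with K+ they were in 23 of 406 (5.67%), among genes lower with K+ in 6 of 358 (1.68%), and among genes not called in 321 of 10971 (2.93%). The first 5 letters alone, TGACG, searched on both strands, were in 33.5% of the higher, 22.9% of the lower and 29.5% of all genes. The AP-1 letters TGAGTCA, searched on both strands, were in 4.43% of the higher, 4.19% of the lower and 3.72% of all genes. Whether CREB has a part in the differences between the ions was not tested. Of the secreted list, 5 of 24 genes with a promoter entry held the element, and 3 of the 10 called among them: Chgb, Pcsk1 and Scg2. Of the immediate early factors 2 of 23 held it, 1 of them among the 9 called higher, and of the intracellular effectors 2 of 19, with 0 of the 4 called higher. The promoters of Chgb, Pcsk1 and Scg2 are shown with that of Maff to make the element visible in genes described above. Each is the 150 bases before the start, 5′ to 3′ on the gene's strand, with the element in capitals. The positions are chr2:132781492-132781641 (+ strand) for Chgb, chr15:79347370-79347519 (+ strand) for Maff, chr13:75089707-75089856 (+ strand) for Pcsk1 and chr1:79440027-79440176 (minus strand) for Scg2. The element begins 72, 29, 78 and 68 bases before the start in that order.
Chgb: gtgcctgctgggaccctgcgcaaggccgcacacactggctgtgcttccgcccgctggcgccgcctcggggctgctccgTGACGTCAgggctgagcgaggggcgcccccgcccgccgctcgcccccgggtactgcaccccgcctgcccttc
Maff: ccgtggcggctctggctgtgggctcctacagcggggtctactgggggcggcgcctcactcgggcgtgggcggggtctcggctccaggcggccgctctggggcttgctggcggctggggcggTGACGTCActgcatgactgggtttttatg
Pcsk1: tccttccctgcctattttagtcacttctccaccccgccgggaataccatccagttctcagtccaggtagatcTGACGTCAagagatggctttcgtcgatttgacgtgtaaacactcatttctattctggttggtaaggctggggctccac
Scg2: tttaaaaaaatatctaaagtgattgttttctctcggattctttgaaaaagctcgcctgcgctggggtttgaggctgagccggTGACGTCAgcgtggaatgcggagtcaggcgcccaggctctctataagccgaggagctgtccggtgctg

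Proteins that limit signalling differed as well. Of 17 RGS proteins tested, 5 were higher and 2 lower. Rgs4 (chromosome 1, 169741477 to 169747642), a neuronal brake on Gi and Gq signals, stood at 284, 285 and 282 CPM with K+, 171, 159 and 165 with Na+ and 214, 189.8 and 223 in PA. The 3 groups did not overlap, with PA between (1.72-fold, log2 difference 0.78, SE 0.043, edgeR adjusted p = 3.28e-13). Rgs2, which acts on Gq, was at 162, 162 and 157 CPM with K+, 114, 103 and 99.9 with Na+ and 110.4, 114 and 112 in PA, with K+ apart from both others (1.52-fold, log2 difference 0.60, SE 0.042, edgeR adjusted p = 6.11e-15). Rgs7 was 1.23-fold higher (log2 0.30, adjusted p = 3.55e-04), and Rgs10 was higher (log2 0.34, adjusted p = 0.039, a call kept in 11 of 17 other settings, with adjusted p up to 0.215). Rgs6 was lower (log2 -0.28, adjusted p = 0.00628, a call lost without K+ ICN replicate 3, with adjusted p up to 0.0826), as was Rgs17 (log2 -0.23, adjusted p = 0.0483, a call kept in 9 of 17 other settings, with adjusted p up to 0.288).

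Of 27 phosphatases and Sprouty proteins that restrain MAP kinases, 5 were higher (3 without Na+ ICN replicate 3). None was lower by edgeR, DESeq2 or limma voom, against 2 at an unadjusted p under 0.05. Dusp4, a phosphatase of nuclear ERK, was at 81.5, 85.8 and 83.5 CPM with K+, 64.7, 65.0 and 65.4 with Na+ and 71.8, 70.9 and 75.8 in PA, and PA lay between the ions without overlap (log2 difference 0.36, SE 0.051, edgeR adjusted p = 8.11e-07). Spred3 (1.30-fold, log2 0.37, adjusted p = 5.10e-07) and Dusp6 (1.29-fold, log2 0.37, adjusted p = 2.93e-04) were higher. So were Spry2 (log2 0.30, adjusted p = 0.00197, a call lost without Na+ ICN replicate 3, with adjusted p up to 0.052) and Spry4 (log2 0.29, adjusted p = 0.0306, a call lost with limma voom and without K+ ICN replicate 2 or 3 or Na+ ICN replicate 1 or 3, with adjusted p up to 0.19).

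Enzymes of cyclic nucleotide and calcium signalling took both directions, 8 higher (13.3%) and 4 lower (6.67%) of 60, against 3.33% and 3.25% of all genes. The kinase Camk1d was 1.28-fold higher (log2 0.35, adjusted p = 1.33e-05). Camkk2, which activates it, was lower (log2 -0.27, adjusted p = 1.13e-05), as were the protein kinase subunits Prkcb (log2 -0.22, adjusted p = 1.88e-05) and Prkacb (log2 -0.13, adjusted p = 0.00161) and the CaMKII inhibitor Camk2n1 (log2 -0.25, adjusted p = 0.0393, a call lost with limma voom and without K+ ICN replicate 1 or 3 or Na+ ICN replicate 1 or 2, with adjusted p up to 0.225).

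Of 8 neurotrophin receptors and sortilins, Sorcs2 and Sorcs3 were higher. Sorcs2, a co-receptor for proBDNF, was at 74.6, 67.7 and 71.6 CPM with K+, 47.7, 48.6 and 48.5 with Na+ and 66.2, 62.3 and 62.6 in PA, and PA lay between the ions (1.48-fold, log2 difference 0.56, SE 0.057, edgeR adjusted p = 3.46e-10). Sorcs3 was at 22.3, 25.3 and 29.6 CPM with K+ and 20.4, 21.3 and 19.4 with Na+ (log2 0.34, adjusted p = 0.0143, a call lost with limma voom and without K+ ICN replicate 3 or Na+ ICN replicate 3, with adjusted p up to 0.257, and a log2 difference of 0.22 without K+ ICN replicate 3). Ntrk2, which encodes TrkB, was at 556, 592 and 592 CPM with K+ and 568, 582 and 587 with Na+ (adjusted p = 0.978, edgeR), so the receptor of BDNF overlapped between the ions where the ligand did not.

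Presynaptic genes were mostly higher where they differed, 13 of 49 against 5 lower (3 without Na+ ICN replicate 2; median 0.063). Rab3c, a GTPase of synaptic vesicles, stood at 399, 419.9 and 420.1 CPM with K+, 339, 342 and 345 with Na+ and 360.3, 379 and 377 in PA, with K+ above and Na+ below PA (log2 difference 0.27, SE 0.031, edgeR adjusted p = 4.83e-09). The vesicle glycoproteins Sv2c (44.1, 43.8 and 46.6 CPM with K+ and 30.6, 32.8 and 28.7 with Na+, log2 0.55, adjusted p = 2.04e-07) and Sv2b (50.6, 47.1 and 54.4 CPM with K+ and 39.5, 34.4 and 36.8 with Na+, log2 0.46, adjusted p = 1.02e-05) were higher by more. The SNARE protein Snap25 differed by a log2 of 0.12 (a call lost without K+ ICN replicate 2 or Na+ ICN replicate 2, with adjusted p up to 0.143). The K+ and Na+ libraries of Syn1, the vesicle tether, did not overlap, as for 22% of all genes, but it was not called (log2 difference 0.073, adjusted p = 0.188).

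Syn3, the synapsin of young neurons, went the other way, at 211, 224 and 229 CPM with K+, 259, 274 and 275 with Na+ and 207, 213 and 206 in PA. Na+ stood above and K+ overlapped PA (log2 difference -0.28, SE 0.035, edgeR adjusted p = 7.13e-08). Cbln2, a secreted organiser that bridges neurexins to receptors, was at 10.1, 9.41 and 12 CPM with K+, 15.2, 13.6 and 15.6 with Na+ and 16.7, 19.7 and 20.3 in PA, graded from PA down to K+ (log2 difference -0.50, SE 0.12, edgeR adjusted p = 0.00294). Syt4, described above, Doc2b (log2 -0.36, adjusted p = 0.00766, a call lost without K+ ICN replicate 1 or Na+ ICN replicate 2, with adjusted p up to 0.136) and Rims3 (log2 -0.14, adjusted p = 0.0333, a call kept in 10 of 17 other settings, with adjusted p up to 0.178) complete the lower members.

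Genes of GABA synthesis, GABA receptors and interneurons were higher in 11 of 35 tested and lower in 1 (median 0.039). These are 31.4% and 2.86%, against 3.33% and 3.25% of all genes. Gad1, which makes GABA from glutamate, stood at 272, 265 and 287 CPM with K+, 224, 225 and 243 with Na+ and 291, 279.8 and 288 in PA. Na+ was the group that stood apart, and K+ overlapped PA (1.19-fold, log2 difference 0.25, SE 0.035, edgeR adjusted p = 8.14e-07). Against PA, Gad1 gave a log2 of -0.059 with K+ (adjusted p = 0.276) and -0.31 with Na+ (adjusted p = 7.37e-09, edgeR). Reln, secreted by interneurons and Cajal-Retzius cells, was at 363, 373 and 386 CPM with K+, 327, 308 and 325 with Na+ and 421, 431 and 422 in PA, with both ions below PA and Na+ lowest (log2 difference 0.23, SE 0.031, edgeR adjusted p = 6.41e-07).

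The receptor subunit Gabrg3 was at 39.6, 41.5 and 47.4 CPM with K+, 30.9, 31.1 and 31.7 with Na+ and 32.9, 33.5 and 32.7 in PA, with PA between the ions (log2 difference 0.46, SE 0.074, edgeR adjusted p = 1.42e-05). Gabrb1 was higher by less (log2 0.21, adjusted p = 4.92e-05). Gabra5, the subunit of extrasynaptic receptors, differed by a log2 of 0.20 (a call lost without K+ ICN replicate 3, with adjusted p up to 0.0539). Gabra2 was not called (294, 305 and 292 CPM with K+ and 285, 286 and 289.6 with Na+, adjusted p = 0.47). The member that was lower was the transporter Slc6a11 (log2 -0.13, adjusted p = 0.048, a call kept in 3 of 17 other settings, with adjusted p up to 0.304).

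Glutamate receptors divided by subunit, 4 higher and 6 lower of 24 (3 without K+ ICN replicate 2 or 3). Grin1, the obligatory subunit of NMDA receptors, stood at 263, 263 and 272 CPM with K+, 223, 212 and 199.6 with Na+ and 199, 200.3 and 199 in PA, with K+ apart (1.26-fold, log2 difference 0.33, SE 0.035, edgeR adjusted p = 1.47e-09). Grin2a, the subunit that gains weight as cortex matures, was at 46.0, 49.8 and 47.2 CPM with K+, 35.7, 37.8 and 37.3 with Na+ and 43.6, 44.9 and 47.3 in PA and higher (1.29-fold, log2 difference 0.37, SE 0.067, edgeR adjusted p = 1.10e-04). Its K+ libraries overlapped PA and its Na+ libraries lay below. Grin2b, the subunit of young synapses, was at 354, 382 and 375 CPM with K+, 397, 419.6 and 427 with Na+ and 424, 455 and 418 in PA and lower (log2 difference -0.16, SE 0.034, edgeR adjusted p = 0.00137). Grm2, a presynaptic metabotropic receptor, was graded from PA to K+, at 74.6, 81.4 and 77.9 CPM with K+, 61.5, 52.9 and 54.7 with Na+ and 45.9, 44.9 and 45.8 in PA (log2 difference 0.47, SE 0.059, edgeR adjusted p = 8.89e-08). Grik3 was higher (log2 0.20, adjusted p = 0.0316, a call lost with limma voom and without K+ ICN replicate 1 or 2 or Na+ ICN replicate 1 or 3, with adjusted p up to 0.215). The AMPA subunits Gria1 and Gria2 were not called (adjusted p = 0.781 and 0.216, edgeR).

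Postsynaptic scaffold and adhesion genes were lower in 8 of 35 tested and higher in 1 (median -0.026). These are 22.9% and 2.86%, against 3.25% and 3.33% of all genes. Dlgap1, which links PSD-95 to Shank, was at 166, 168 and 169 CPM with K+ and 197, 196 and 185 with Na+ (log2 difference -0.20, SE 0.036, edgeR adjusted p = 8.57e-05). The adhesion protein Lrrc4b (log2 -0.16, adjusted p = 0.00175) and the exchange factor Iqsec2 (log2 -0.27, adjusted p = 0.00282) were lower, and Neto1, an auxiliary subunit of kainate receptors, was higher (log2 0.26, adjusted p = 1.48e-04). Dlg4, which encodes PSD-95, was at 419, 403 and 432 CPM with K+ and 394, 405 and 385 with Na+ and was not called (adjusted p = 0.0913), although it was without K+ ICN replicate 2 (adjusted p = 0.0469).

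Potassium channels conduct an ion compared here, but a link between the ion and their RNA levels was not tested. Of 52 voltage-gated and calcium-activated subunits, 7 were higher (13.5%, against 3.33% of all genes) and 2 lower (3.85%, near the 3.25% of all genes), with a median of -0.0018. Kcna1, a delayed rectifier of axons, stood at 30.7, 37.0 and 38.3 CPM with K+, 23.3, 22.3 and 24.7 with Na+ and 24.5, 23.5 and 22.3 in PA, with K+ apart and Na+ overlapping PA (1.51-fold, log2 difference 0.59, SE 0.084, edgeR adjusted p = 1.07e-06). Kcna4, an A-type subunit, was 1.28-fold higher (log2 0.36, adjusted p = 6.91e-04) and Kcna6 1.19-fold (log2 0.25, adjusted p = 0.00156). Kcnd3, another A-type subunit, was 1.17-fold higher (log2 0.23, adjusted p = 0.00169).

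The other Kv calls were each lost in 1 or more settings. Kcnq3, an M-current subunit, was higher (log2 0.26, adjusted p = 0.0015, a call lost without K+ ICN replicate 3, with adjusted p up to 0.057), as were Kcnd2 (log2 0.13, adjusted p = 0.0283, a call lost without K+ ICN replicate 1 or 3 or Na+ ICN replicate 1, with adjusted p up to 0.156) and Kcns2 (log2 0.38, adjusted p = 0.0454, a call kept in 8 of 17 other settings, with adjusted p up to 0.247). The modifier subunits Kcnv1 (log2 -0.30, adjusted p = 0.0194, a call lost without K+ ICN replicate 1 or 2 or Na+ ICN replicate 1 or 3, with adjusted p up to 0.134) and Kcng3 (log2 -0.39, adjusted p = 0.048, a call kept in 6 of 17 other settings, with adjusted p up to 0.418) were lower.

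Of 10 leak channels of the tandem-pore family, the acid-sensitive Kcnk9 (chromosome 15, 72501873 to 72548614) was called. It stood at 156, 158 and 162 CPM with K+, 108, 106 and 111 with Na+ and 134, 141 and 127 in PA. The groups did not overlap and PA lay between (1.46-fold, log2 difference 0.55, SE 0.041, edgeR adjusted p = 6.39e-14). Against PA it was higher with K+ (log2 0.24, adjusted p = 1.20e-05) and lower with Na+ (log2 -0.31, adjusted p = 4.92e-07, edgeR). Of 10 inward rectifiers, Kcnj3 and Kcnj6, which encode subunits of G protein-gated channels, were higher. Kcnj3 was at 99.2, 101 and 102 CPM with K+, 78.7, 76.8 and 79.8 with Na+ and 95.5, 96.6 and 98.7 in PA (log2 difference 0.36, SE 0.045, edgeR adjusted p = 7.42e-08) and Kcnj6 at 51.9, 50.5 and 56.5 CPM with K+, 40.2, 38.5 and 40.8 with Na+ and 43.2, 42.9 and 38.2 in PA (log2 difference 0.41, SE 0.068, edgeR adjusted p = 2.14e-05). For Kcnj3 the Na+ libraries stood well below PA and the K+ libraries just above it. For Kcnj6 the K+ libraries stood above PA and Na+ overlapped it.

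Of 14 sodium channel subunits, Scn1a, the alpha subunit prominent in interneurons, was higher, at 52.6, 54.0 and 57.7 CPM with K+, 44.4, 37.7 and 46.9 with Na+ and 49.7, 54.8 and 55.0 in PA (log2 difference 0.35, SE 0.069, edgeR adjusted p = 4.23e-04). Here Na+ lay below and K+ overlapped PA. Scn3b, an auxiliary subunit, was lower, at 152, 149.7 and 158 CPM with K+, 190.2, 175 and 177 with Na+ and 187, 188 and 190.2 in PA, with K+ apart (log2 difference -0.24, SE 0.038, edgeR adjusted p = 9.12e-06). Scn2a was not called (181, 193 and 195 CPM with K+ and 190.2, 188 and 203 with Na+, adjusted p = 0.752). Without Na+ ICN replicate 2 the count of higher subunits was 2.

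Of 22 genes listed as calcium channel subunits 3 were higher (1 without K+ ICN replicate 3 or Na+ ICN replicate 2) and 3 lower (5 without Na+ ICN replicate 2). The list includes Cacng genes by family name. Among them is Cacng5, described above as an auxiliary subunit of AMPA receptors and counted here as higher. Cacna1a, the P/Q-type pore, was higher (log2 0.21, adjusted p = 0.00996, a call lost without K+ ICN replicate 3 or Na+ ICN replicate 2, with adjusted p up to 0.139), as was Cacnb2 (log2 0.38, adjusted p = 0.0295, a call lost without K+ ICN replicate 2 or 3 or Na+ ICN replicate 2, with adjusted p up to 0.282). Cacna1i, a T-type pore, was lower, at 35.1, 35.3 and 32.1 CPM with K+, 43.2, 42.6 and 45.1 with Na+ and 39.9, 41.6 and 40.8 in PA, with PA between the ions (log2 difference -0.35, SE 0.069, edgeR adjusted p = 3.15e-04). Cacnb3 was lower (log2 -0.18, adjusted p = 9.90e-04), and Cacng4 was lower (log2 -0.14, adjusted p = 0.00851, a call lost without K+ ICN replicate 2, with adjusted p up to 0.191, and a log2 difference of -0.091 without K+ ICN replicate 2).

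The pumps and transporters that restore ion gradients were mostly higher where they differed, 6 of 46 (13%, against 3.33% of all genes). In the list 1 was lower (2.17%, below the 3.25% of all genes). Atp1b1, the beta subunit of the sodium-potassium pump, stood at 693, 667 and 682 CPM with K+, 609, 576 and 616 with Na+ and 628, 602 and 633 in PA (log2 difference 0.18, SE 0.029, edgeR adjusted p = 1.07e-05). Atp2a2, which loads the endoplasmic reticulum with calcium, was at 631, 622 and 620.0 CPM with K+, 524, 497 and 521 with Na+ and 576, 578 and 594 in PA, with PA between the ions (log2 difference 0.28, SE 0.028, edgeR adjusted p = 2.28e-10). Atp2b2, which expels calcium from the cell, was higher (log2 0.26, adjusted p = 2.03e-07), as was the exchanger Slc24a4, which trades sodium against calcium and potassium (22.6, 19.7 and 22 CPM with K+ and 14.3, 15.4 and 15.9 with Na+, log2 0.49, adjusted p = 8.04e-04). Slc8a1, the plain sodium-calcium exchanger, was not called (adjusted p = 0.114).

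Genes of osmolyte transport and cell volume were not called, 0 of 17 with edgeR, DESeq2 and limma voom alike, with 7 at an unadjusted p under 0.05 and 1 called without Na+ ICN replicate 3. The taurine transporter Slc6a6 was at 331, 323 and 336 CPM with K+ and 328, 314 and 339 with Na+, and Wnk1, a chloride-sensing kinase, at 229, 233 and 232 CPM with K+ and 217, 229.8 and 241 with Na+.

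**Figure D3:**
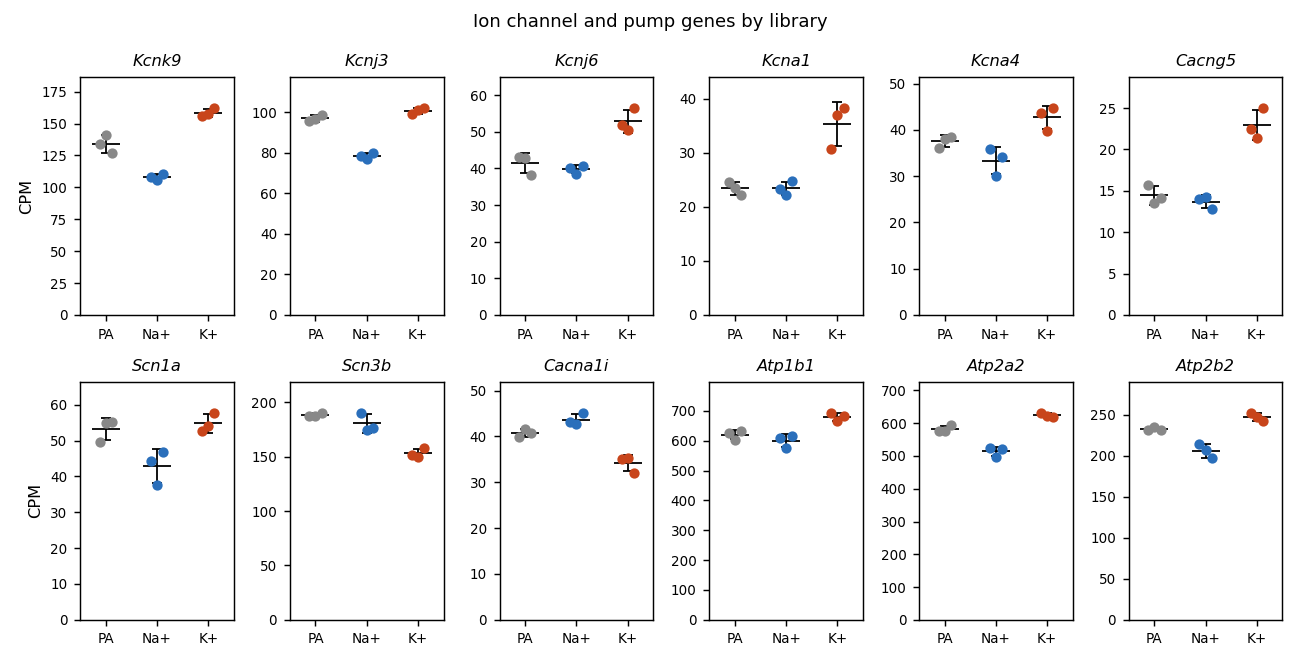
Level in each library (CPM, linear axes from 0) of ion channel and pump genes in PA, Na+ ICN and K+ ICN, with each point a library and the mark and error bar the mean and SD of 3. For Kcnk9 the 3 groups are separate with PA between, for Kcna1 the K+ libraries alone stand apart from PA, and for Scn1a the Na+ libraries lie below PA and K+ overlaps it.

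On the lower side, the largest difference by the rule was in Dclk3 (chromosome 9, 111439081 to 111489611), a kinase of the doublecortin-like family. It stood at 8.74, 9.31 and 7.27 CPM with K+, 14.9, 12.9 and 19.1 with Na+ and 11.2, 12.9 and 12.3 in PA. The ions did not overlap (0.538 of the Na+ level, log2 difference -0.89, SE 0.13, edgeR adjusted p = 2.66e-06). The thyrotropin receptor Tshr (6.34, 7.39 and 7.17 CPM with K+ and 10.9, 12.1 and 13.5 with Na+, log2 -0.80, adjusted p = 7.52e-05), the secreted protein Tafa1 (3.71, 4.23 and 4.70 CPM with K+ and 6.62, 6.90 and 8.37 with Na+, log2 -0.79, adjusted p = 0.00111) and the glutamine transporter Slc38a3 (14.0, 14.3 and 11.7 CPM with K+ and 19.5, 23.3 and 17.9 with Na+, log2 -0.60, adjusted p = 1.20e-04) followed. The proteoglycan Gpc5 was at 5.71, 6.63 and 6.35 CPM with K+, 10.4, 9.92 and 9.83 with Na+ and 8.90, 8.93 and 8.83 in PA, with PA between (log2 -0.69, adjusted p = 6.66e-04), and the GTPase exchange factor Arhgef28 was also lower (log2 -0.56, adjusted p = 3.98e-04).

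Other genes that the rule takes were less secure. They were the transporter Abca8b (log2 -0.70, adjusted p = 0.00616, a call lost without Na+ ICN replicate 2, with adjusted p up to 0.149), the ephrin receptor Epha8 (log2 -0.61, adjusted p = 0.00277, a call lost without K+ ICN replicate 2, with adjusted p up to 0.0649), the GTPase regulator Arhgap28 (log2 -0.59, adjusted p = 0.00411, a call lost without Na+ ICN replicate 3, with adjusted p up to 0.0549) and Kctd4 (log2 -0.59, adjusted p = 0.00685, a call lost without K+ ICN replicate 3, with adjusted p up to 0.0585). Sla, an adaptor that damps receptor signals, stood at 70.4, 76.9 and 72.1 CPM with K+, 106, 109 and 108 with Na+ and 81.5, 92.9 and 93.8 in PA. Its 3 groups were separate, with K+ lowest and Na+ highest (log2 difference -0.56, SE 0.05, edgeR adjusted p = 1.16e-11). Scml4 (10.3, 10.8 and 10.8 CPM with K+ and 15.1, 15.0 and 15.6 with Na+, log2 -0.52, adjusted p = 0.00144) and Pik3ip1, an inhibitor of PI3 kinase (7.61, 8.0 and 9.11 CPM with K+ and 12.1, 11.3 and 11.8 with Na+, log2 -0.51, adjusted p = 0.00699), had the same order.

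Genes of immature neurons were lower with K+ in 16 of 30 tested and higher in 1 (median -0.097). These are 53.3% and 3.33%, against 3.25% and 3.33% of all genes. The list shares members with those below, so the counts are not separate. Tubb3 and Tubb2b are also among the tubulins, and Dcx and Stmn1 among the microtubule-associated proteins and stathmins. Sox11 (chromosome 12, 27334268 to 27342718), a SoxC factor of newly born neurons, stood at 576, 592 and 570.5 CPM with K+, 708, 740.1 and 733 with Na+ and 611, 653 and 636 in PA. The groups were separate, with K+ below and Na+ above PA (0.797 of the Na+ level, log2 difference -0.33, SE 0.028, edgeR adjusted p = 4.94e-12). Its relative Sox4 was at 731, 741 and 762 CPM with K+, 807, 830.0 and 834 with Na+ and 759, 758 and 772 in PA, with Na+ above and K+ overlapping PA (log2 difference -0.15, SE 0.026, edgeR adjusted p = 9.67e-05). Dcx, which stabilises microtubules in migrating neurons, was at 1724, 1770.1 and 1738 CPM with K+, 1996, 2062 and 2105 with Na+ and 1943, 2048 and 2022 in PA, with K+ apart from both others (log2 difference -0.24, SE 0.025, edgeR adjusted p = 8.56e-10). Neurod1, a differentiation factor, was lower (29.3, 28.1 and 31.4 CPM with K+ and 38.1, 39.3 and 37.5 with Na+, log2 -0.37, adjusted p = 5.76e-04).

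Igfbpl1, a gene of migrating and newly born neurons, had another order, at 85.4, 85.3 and 86.4 CPM with K+, 104, 92.5 and 113 with Na+ and 74.2, 67.3 and 69.0 in PA. Both ions stood above PA, Na+ by more (log2 difference -0.27, SE 0.053, edgeR adjusted p = 5.54e-04). Marcksl1, an actin-binding substrate of protein kinase C, was the member that was higher (log2 0.11, adjusted p = 0.0119, a call lost without K+ ICN replicate 1 or 3 or Na+ ICN replicate 2 or 3, with adjusted p up to 0.121). Tmsb10 and Nnat, the most abundant members not called, were close between the ions (log2 -0.033 and -0.045, adjusted p = 0.672 and 0.499, edgeR).

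Of 13 tubulins 6 were lower and 1 higher. Tubb3 (chromosome 8, 123411553 to 123422015), the neuronal beta tubulin, stood at 1668, 1613 and 1570.4 CPM with K+, 2038, 1893 and 1868 with Na+ and 1977, 1913 and 1989 in PA, with K+ apart (0.837 of the Na+ level, log2 difference -0.26, SE 0.028, edgeR adjusted p = 3.14e-08). Tubb2b, a beta tubulin of migrating neurons, was at 3714, 3537 and 3512 CPM with K+, 4403, 4247 and 4127 with Na+ and 3915, 3827 and 3936 in PA, and PA lay between (log2 difference -0.25, SE 0.024, edgeR adjusted p = 1.72e-10). Tuba1a (log2 -0.17, adjusted p = 6.42e-08), Tubb5 (log2 -0.18, adjusted p = 1.65e-07) and Tuba1b (log2 -0.13, adjusted p = 1.59e-04) were lower by less. Tuba4a, an alpha tubulin more abundant in adult brain, was the higher member (20.3, 17.9 and 20.3 CPM with K+ and 14.4, 13.3 and 13.7 with Na+, 1.42-fold, log2 difference 0.50, SE 0.10, edgeR adjusted p = 5.11e-04). The mature isotype Tubb4a was not called (adjusted p = 0.711). Tubulin genes are near-identical in their coding sequence, so their counts may be shared between isotypes.

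Microtubule-associated proteins and stathmins were lower in 10 of 36 tested (6 without K+ ICN replicate 2) and higher in 1. These are 27.8% and 2.78%, against 3.25% and 3.33% of all genes. Map1b, the early axonal protein, was at 4293, 4523 and 4456 CPM with K+, 4849.7, 4993 and 5034 with Na+ and 4886, 5103 and 4908 in PA (log2 difference -0.16, SE 0.023, edgeR adjusted p = 7.39e-07). Map2, the dendritic one, differed by -0.12 (adjusted p = 7.48e-04), and Stmn1, a microtubule destabiliser, by -0.15 (adjusted p = 8.93e-06). Jakmip1, which ties GABA-B receptors to microtubules, was lower (54.2, 52.4 and 55.6 CPM with K+ and 73.1, 70.1 and 63.3 with Na+, log2 -0.35, adjusted p = 2.23e-05). Map1s was the higher member (log2 0.22, adjusted p = 0.0295, a call lost without K+ ICN replicate 1 or 3 or Na+ ICN replicate 1 or 3, with adjusted p up to 0.184). Dclk1, a relative of Dcx, was not called (1115, 1132 and 1143 CPM with K+ and 1150.4, 1134 and 1157 with Na+, adjusted p = 0.736).

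Axon guidance genes moved both ways, 12 higher and 14 lower of 79, so 32.9% were called against 6.58% of all genes. Ntng2, a netrin-G that lies on axons, stood at 129.7, 133 and 128 CPM with K+, 87.5, 90.4 and 91.0 with Na+ and 94.8, 92.5 and 87.2 in PA, with K+ apart (log2 difference 0.54, SE 0.044, edgeR adjusted p = 6.77e-13). Sema7a, a membrane-bound semaphorin, was higher (189, 184 and 178 CPM with K+ and 144, 142 and 141 with Na+, log2 0.37, adjusted p = 3.47e-10) and its receptor Plxnc1 lower (53.4, 58.2 and 57.1 CPM with K+ and 67.3, 78.6 and 74.0 with Na+, log2 -0.38, adjusted p = 3.37e-06). Slit2, a repellent ligand, was higher (log2 0.25, adjusted p = 9.11e-05) and its receptor Robo1 lower (log2 -0.16, adjusted p = 0.00156). The semaphorin receptor Nrp1 was higher (log2 0.26, adjusted p = 1.83e-06), and the axonal adhesion protein Cntn2 lower, at 132, 128 and 138 CPM with K+, 168, 159 and 172 with Na+ and 164, 161 and 160.0 in PA (log2 -0.33, adjusted p = 3.12e-08). L1cam was not called (605, 625 and 620.0 CPM with K+ and 630.0, 615 and 607 with Na+, adjusted p = 0.99).

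Factors of cortical projection neurons were lower in 6 of 36 tested and higher in 2 (median -0.073). Lmo4, a transcriptional cofactor, was at 177, 175 and 168 CPM with K+, 229, 210.5 and 219.5 with Na+ and 213, 213 and 222 in PA, with K+ apart (log2 difference -0.34, SE 0.036, edgeR adjusted p = 1.35e-09). Mdga1 (log2 -0.31, adjusted p = 7.66e-07) and Zbtb18 (log2 -0.18, adjusted p = 1.01e-06) were lower. Satb1, a chromatin organiser that activity induces in interneurons, was higher, at 175, 177 and 179 CPM with K+, 146, 139.6 and 140.4 with Na+ and 149, 155 and 156 in PA, with PA between (log2 difference 0.32, SE 0.037, edgeR adjusted p = 2.15e-08). Sox5 was higher (log2 0.22, adjusted p = 0.00704, a call lost without K+ ICN replicate 3 or Na+ ICN replicate 1, with adjusted p up to 0.0684).

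Of 4 Mef2 factors, Mef2c (chromosome 13, 83504017 to 83667079), which restrains synapse number, stood at 515, 517 and 514 CPM with K+, 635, 631 and 644 with Na+ and 759, 779.8 and 766 in PA. The order was PA, then Na+, then K+, with no overlap (0.809 of the Na+ level, log2 difference -0.30, SE 0.027, edgeR adjusted p = 6.01e-12). Mef2d was higher (164, 159.6 and 164 CPM with K+ and 150.2, 146 and 142 with Na+, log2 0.15, adjusted p = 0.00503), with Na+ below PA and K+ overlapping it. Mef2a was not called (adjusted p = 0.417).

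**Figure D4:**
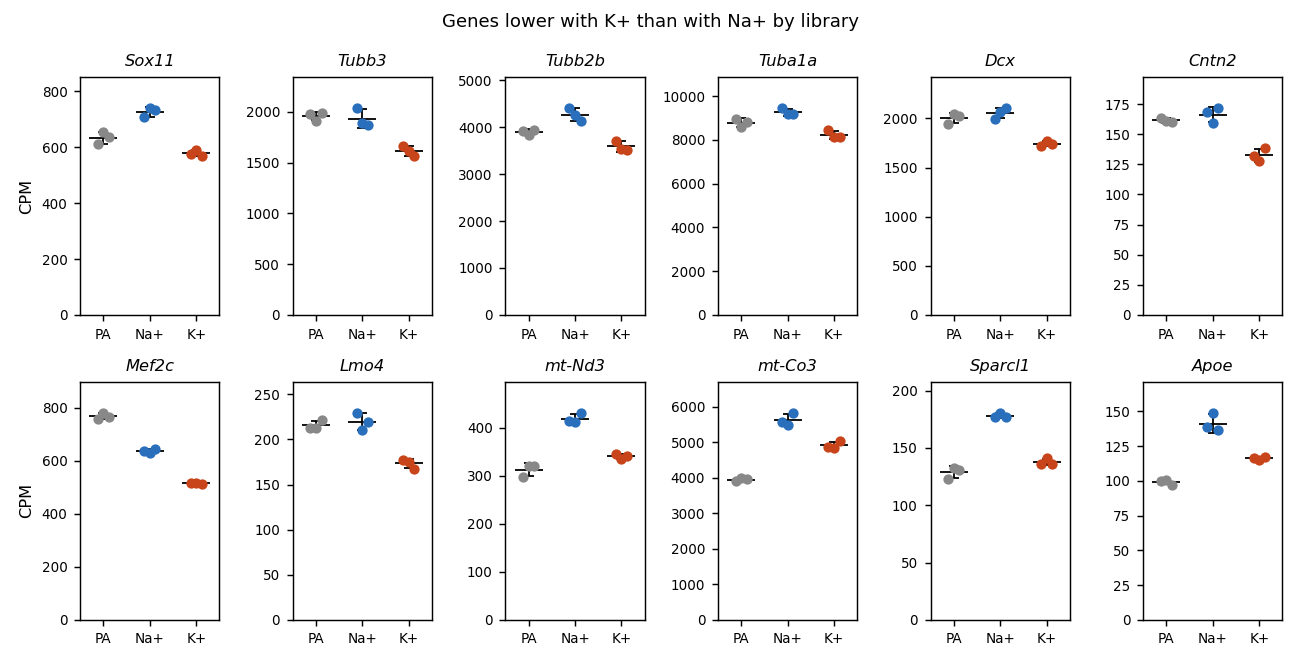
Level in each library (CPM, linear axes from 0) of genes lower with K+ than with Na+ in PA, Na+ ICN and K+ ICN, with each point a library and the mark and error bar the mean and SD of 3. Sox11 and Tubb2b lie below PA with K+ and above it with Na+, and Mef2c is highest in PA and lowest with K+.

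Of 13 protein-coding genes of the mitochondrial genome 8 were lower with K+ (5 without K+ ICN replicate 1 or 2 or Na+ ICN replicate 3) and none higher by edgeR, DESeq2 or limma voom, nor at an unadjusted p under 0.05. mt-Nd3, a subunit of complex I, stood at 345, 335 and 341 CPM with K+, 413, 412 and 430.3 with Na+ and 296, 319 and 321 in PA (log2 difference -0.30, SE 0.032, edgeR adjusted p = 1.35e-09). mt-Co3, of cytochrome oxidase, was at 4876, 4855 and 5034 CPM with K+, 5572, 5498 and 5829 with Na+ and 3903, 3984 and 3959 in PA (log2 difference -0.19, SE 0.023, edgeR adjusted p = 1.14e-08). In both, Na+ was highest and K+ lay between Na+ and PA. Of 81 nuclear-encoded subunits of the same chain 1 was lower (1.23%, below the 3.25% of all genes). It was Cox7a2l (log2 -0.16, adjusted p = 0.021, a call lost without K+ ICN replicate 2 or Na+ ICN replicate 2 or 3, with adjusted p up to 0.143). Mitochondrial ribosomal proteins were not called, 0 of 78 by edgeR, DESeq2 or limma voom, with 6 at an unadjusted p under 0.05.

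Cytosolic ribosomal proteins were lower in 14 of 83 tested (4 without K+ ICN replicate 3 or Na+ ICN replicate 1 and 7 without K+ ICN replicate 2 and 8 without Na+ ICN replicate 2) and higher in 1 (median -0.085). With all libraries these are 16.9% and 1.2%, against 3.25% and 3.33% of all genes. Differences were small, as in Rps7 at 309, 308 and 309 CPM with K+, 331, 345 and 344 with Na+ and 278, 287 and 289 in PA (log2 difference -0.14, SE 0.031, edgeR adjusted p = 0.00184). Rps7 was highest with Na+ and lowest in PA. Rpl22l1, a paralogue of Rpl22, was higher (log2 0.29, adjusted p = 0.0232, a call lost without K+ ICN replicate 1, 2 or 3 or Na+ ICN replicate 2 or 3, with adjusted p up to 0.111). These genes have many pseudogenes, so counts may be shared between copies.

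Genes of cholesterol and fatty acid synthesis were lower in 8 of 30 tested (4 without K+ ICN replicate 1 and 5 without K+ ICN replicate 2) and higher in 1. With all libraries these are 26.7% and 3.33%, against 3.25% and 3.33% of all genes. The consecutive mevalonate enzymes Pmvk and Mvd went opposite ways. Pmvk was at 108, 118 and 107 CPM with K+, 88.6, 86.8 and 81.7 with Na+ and 88.0, 86.0 and 93.5 in PA (log2 difference 0.37, SE 0.048, edgeR adjusted p = 1.33e-07) and Mvd at 77.7, 78.5 and 85.5 CPM with K+, 100.4, 112 and 94.6 with Na+ and 96.6, 89.1 and 94.6 in PA (log2 difference -0.34, SE 0.052, edgeR adjusted p = 7.63e-06). K+ stood apart from both other groups in each, above for Pmvk and below for Mvd. The desaturase Scd2 (log2 -0.17, adjusted p = 7.75e-07) and Acat2 (log2 -0.17, adjusted p = 1.78e-04) were lower. The early enzyme Hmgcs1 was not called (edgeR adjusted p = 0.594).

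In the stress response list 6 of 36 were higher (2 without K+ ICN replicate 2) and 1 lower. These are 16.7% and 2.78%, against 3.33% and 3.25% of all genes. Atf4, which directs the integrated stress response, was at 269, 260.0 and 264 CPM with K+, 248, 233 and 226 with Na+ and 215, 215 and 221 in PA (log2 difference 0.17, SE 0.034, edgeR adjusted p = 6.53e-04). Hyou1, a chaperone, was at 141, 139.8 and 134 CPM with K+, 118, 123 and 127 with Na+ and 149, 147 and 151 in PA, with Na+ lowest (log2 difference 0.17, SE 0.04, edgeR adjusted p = 0.00299), and Slc3a2, an amino acid transporter subunit, differed by 0.16 (a call lost without K+ ICN replicate 2, with adjusted p up to 0.0702). Ddit4, an inhibitor of mTORC1, was lower (log2 -0.23, adjusted p = 0.00182). In a separate list of BCL2 family and p53 target genes, 1 of 23 was higher and 1 lower (4.35% each, near the shares of all genes). The lower member was Hrk, a pro-apoptotic BH3 protein, at 36.8, 39.5 and 38.3 CPM with K+, 48.1, 55.3 and 56.5 with Na+ and 47.1, 49.7 and 44.6 in PA (log2 difference -0.48, SE 0.069, edgeR adjusted p = 1.10e-06).

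Of 30 genes of glycolysis and the hypoxia response 4 were higher and 3 lower (1 without K+ ICN replicate 2 or 3 or Na+ ICN replicate 3). Slc2a3, the neuronal glucose transporter, was at 157, 148 and 157 CPM with K+, 127, 122 and 129 with Na+ and 121, 120.2 and 124 in PA, with K+ apart (log2 difference 0.29, SE 0.04, edgeR adjusted p = 5.90e-07). The enzymes Aldoa (log2 0.18, adjusted p = 8.62e-05) and Ldha (log2 0.15, adjusted p = 0.00323) were higher, as was Pfkp (log2 0.15, adjusted p = 0.00696, a call lost without K+ ICN replicate 3 or Na+ ICN replicate 1, with adjusted p up to 0.069). Eno1 (log2 -0.17, adjusted p = 0.00355, a call lost without K+ ICN replicate 2, with adjusted p up to 0.07), Ndrg1 (log2 -0.20, adjusted p = 0.0113, a call lost without K+ ICN replicate 3 or Na+ ICN replicate 3, with adjusted p up to 0.103) and Aldoc (log2 -0.20, adjusted p = 0.0405, a call lost with limma voom and without K+ ICN replicate 2 or 3 or Na+ ICN replicate 2 or 3, with adjusted p up to 0.255) were lower. Txnip, an inhibitor of glucose uptake, was at 5.03, 4.89 and 3.78 CPM with K+, 3.61, 5.72 and 4.16 with Na+ and 10.6, 15.1 and 10.4 in PA (log2 difference 0.027, SE 0.19, edgeR adjusted p = 0.971). It overlapped between the ions and lay below PA with both. The receptor Gipr was above PA with both, at 15.5, 16.8 and 15.6 CPM with K+, 13.5, 11.5 and 14.0 with Na+ and 7.36, 3.93 and 4.42 in PA (adjusted p = 0.257 between the ions).

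Matrix genes were higher in 10 of 91 tested (11%, against 3.33% of all genes) and lower in 2 (2.20%, below the 3.25% of all genes). Acan, the core protein of perineuronal nets, was at 27.8, 30.4 and 29.1 CPM with K+, 20.5, 17.9 and 16.9 with Na+ and 21.7, 22.7 and 19.6 in PA, with K+ apart (1.58-fold, log2 difference 0.66, SE 0.089, edgeR adjusted p = 3.66e-07). Thbs1, a matricellular protein that astrocytes secrete, was at 98.4, 83.9 and 86.3 CPM with K+, 63.7, 71.3 and 65.2 with Na+ and 57.4, 60.8 and 54.4 in PA (log2 difference 0.42, SE 0.058, edgeR adjusted p = 7.66e-07). The lower members were the proteoglycan Vcan (215, 215 and 204 CPM with K+ and 259, 251 and 260.3 with Na+, log2 -0.28, adjusted p = 1.82e-08) and Tnc (148, 146 and 148 CPM with K+ and 168, 180.1 and 165 with Na+, log2 -0.22, adjusted p = 7.79e-05). Ccn1 (26.6, 23.6 and 26.7 CPM with K+ and 16.7, 19.8 and 19.9 with Na+, log2 0.45, adjusted p = 7.93e-04) is also a target of SRF and YAP. In that list, 5 of 26 were higher (3 without K+ ICN replicate 3 or Na+ ICN replicate 2) and 2 lower, Actg1 (log2 -0.14, adjusted p = 5.54e-06) and Amotl2 (log2 -0.23, adjusted p = 0.00311). Acta2, a smooth muscle actin, was at 74.1, 62.0 and 68.1 CPM with K+, 58.3, 51.6 and 53.5 with Na+ and 29.5, 35.8 and 33.1 in PA (log2 0.32, adjusted p = 0.00118). The fibroblast marker sums given above did not overlap between the ions, and their part in the matrix counts was not tested.

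Of 22 astrocyte markers 4 were lower and 1 higher, so that 22.7% were called against 6.58% of all genes. Sparcl1, a secreted promoter of synapses, was at 136, 141 and 136 CPM with K+, 177, 180.5 and 177 with Na+ and 123, 133 and 131 in PA (log2 difference -0.37, SE 0.039, edgeR adjusted p = 8.22e-10), and Apoe, a lipid carrier, at 117, 115 and 117 CPM with K+, 138, 149 and 137 with Na+ and 99.9, 101 and 97.2 in PA (log2 difference -0.28, SE 0.041, edgeR adjusted p = 2.00e-06). Na+ was highest for both. Clu, a secreted chaperone, was graded from PA to K+, at 76.7, 76.0 and 72.8 CPM with K+, 59.7, 64.6 and 66.4 with Na+ and 49.8, 47.7 and 47.6 in PA (log2 difference 0.24, SE 0.056, edgeR adjusted p = 0.00286). The glutamate transporter Slc1a3 (217, 219 and 226 CPM with K+ and 231, 239 and 228 with Na+, adjusted p = 0.224) and Glul (adjusted p = 0.717) were not called. Of 15 progenitor markers, the filament Vim was higher (403, 370.4 and 407 CPM with K+ and 330.3, 338 and 318 with Na+, log2 0.26, adjusted p = 2.16e-07), and Fabp7 (log2 -0.14, adjusted p = 0.00161) and Tnc were lower.

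With edgeR none of the 11 oligodendrocyte, 13 microglial, 11 fibroblast, 9 Cajal-Retzius and choroid or 34 cell division markers tested was called, and DESeq2 and limma voom gave 0 as well. At an unadjusted p under 0.05 the counts were 0, 0, 4, 1 and 3 in that order. Without Na+ ICN replicate 1, 2 fibroblast markers were called, and without K+ ICN replicate 3 or Na+ ICN replicate 3, 1 and 2 cell division markers. Of 18 interferon and antigen presentation genes, B2m was higher (log2 0.46, adjusted p = 0.00707, a call lost without K+ ICN replicate 2, with adjusted p up to 0.153). The summary of lists sets these counts side by side.

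**Figure D5:**
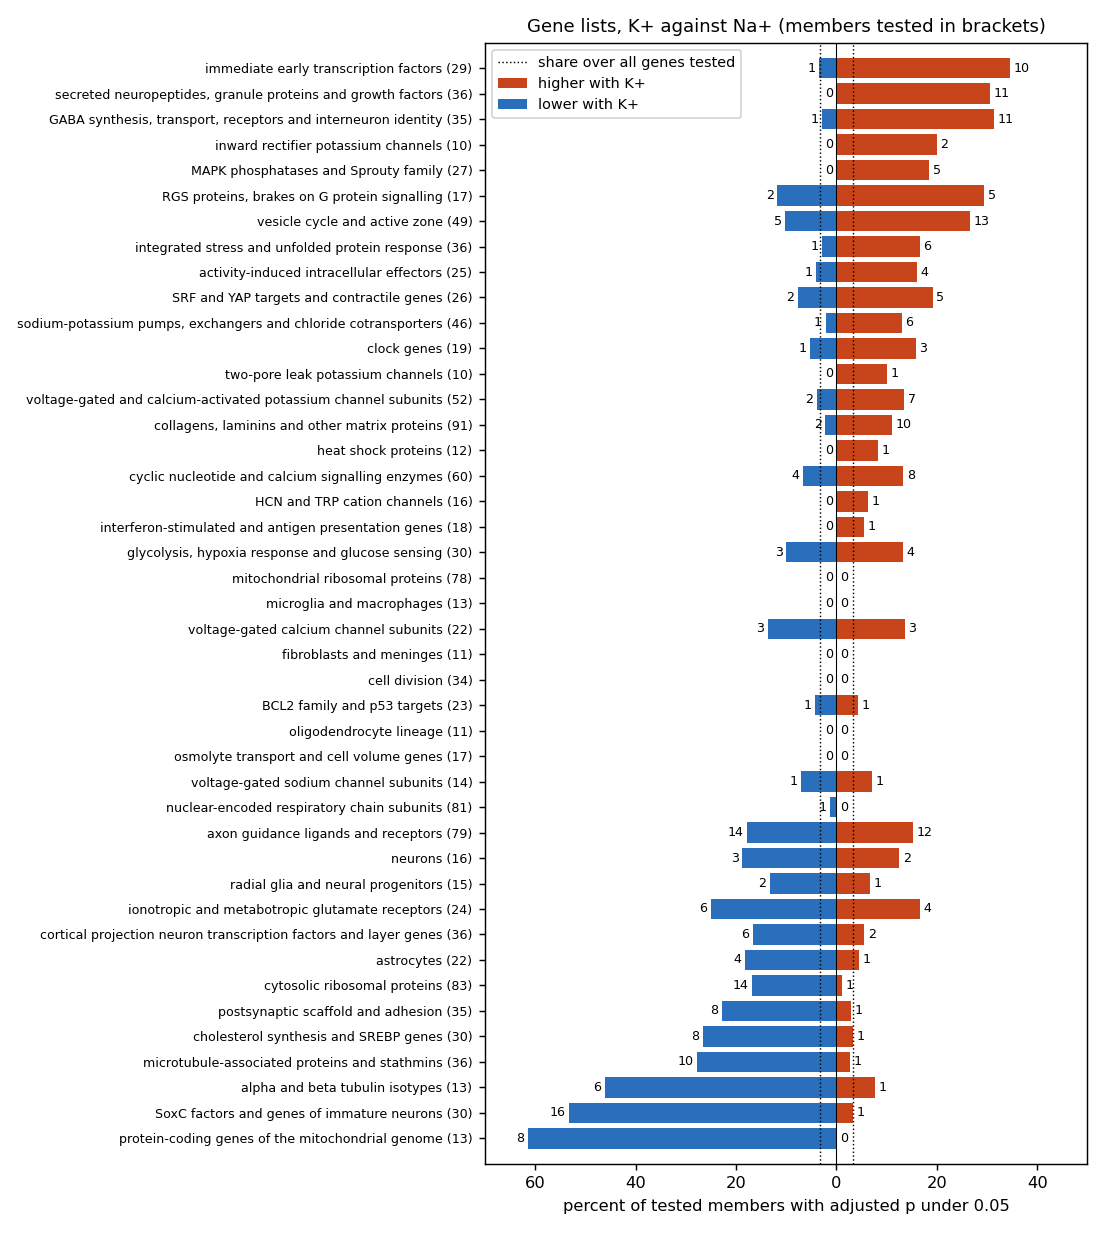
Share of tested members called higher (right) and lower (left) with K+ ICN against Na+ ICN for each gene list with at least 10 members tested (percent of the list, edgeR adjusted p under 0.05), with the number tested in brackets and lines at the shares over all genes, 3.33% and 3.25%. Immediate early factors, GABA-related genes and secreted peptides reach farthest to the right, and genes of the mitochondrial genome, immature neuron genes and tubulins farthest to the left.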

How the data were processed

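RNA of 9 cultures was sequenced from polyadenylated RNA with a stranded kit, per the labels' protocols. The deposited table holds unnormalised whole-number counts that the authors made for 40773 gene symbols in 9 columns. The tools named are Trim Galore, STAR and RSEM, with GRCm38, per the submitters' processing notes. The sources used here give no versions, annotation or strand setting and do not say which tool counted, so overlapping genes and close copies are uncertain. Replicates differed by more than counting noise (chi-square per degree of freedom 3.24 to 4.19).

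Testing used edgeR 4.0.16 under R 4.3.3: filterByExpr with a count minimum of 10 (15183 genes, 99.93% of counts), TMM scaling and a robust quasi-likelihood fit to all 9 libraries, with Benjamini-Hochberg adjustment over all genes tested and a threshold of 0.05. The between-replicate coefficient of variation was 5.67%. The test was tried on simulated counts whose spread followed the level alone, with 200 genes changed between the ions. It called 40.3% of genes changed 1.2-fold, 68.7% at 1.5-fold and 74.2% at 2-fold. Of its 129 calls 7 (5.43%) were of unchanged genes. A gene not called may thus still differ. Every adjusted p in the text is from this fit unless another tool is named. Marker sums are in CPM of the plain library total. Alternatives were DESeq2 1.42.0, limma 3.58.1 voom, other scalings and filters, a fit to the 6 ICN libraries, a replicate term, a minimum fold of 1.2 and leaving out each library.

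The gene lists and members were chosen with earlier results of these data known, and lists are described by counts and medians without a test. A gene can be in several lists. Named genes are the 10 largest differences each way among called genes with a mean of at least 5 CPM and separate libraries, up to 4 called and 2 uncalled members of each list, genes with PA between the ions, and 12 fixed genes. A further 53 were chosen after their values were seen, to complete counts or to pair a ligand with its receptor. A part of the genes taken by the rule is not described, and some genes are not reported here. Positions, promoters and their sequences are RefSeq GRCm38.p6. No sample was left out.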

Additional observations from a re-analysis of the deposited data

How the results depend on the processing

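Between the ions, 906 to 1165 genes were called under the 8 other scalings, tools, filters and fits (453 to 579 higher, 453 to 586 lower), and DESeq2 shared 940 and limma voom 875 of the 999. Leaving out 1 library gave 714 to 976 (352 to 499 higher, 362 to 477 lower), lowest without K+ ICN replicate 3. Against PA such omissions gave 1778 to 2480 with K+ ICN (931 to 1273, 833 to 1210) and 1079 to 1611 with Na+ ICN (585 to 835, 494 to 785), in the latter 1089 without Na+ ICN replicate 2 and 1079 without PA replicate 3. A minimum fold of 1.2 left 44 (39 higher, 5 lower) between the ions, 251 (210, 41) for K+ ICN and 92 (71, 21) for Na+ ICN against PA, fewer by its construction. Upper-quartile scaling moved the division against PA, as given above; the cause was not tested. Of 194 called genes named, 147 kept the call in all 17 settings other than the minimum fold. Among genes not called, omissions moved Txnip (log2 0.027) between -0.104 and 0.232, below 0 without K+ ICN replicate 1 or 2 or Na+ ICN replicate 1 or 3, and Arc (log2 -0.076) between -0.213 and 0.136, above 0 without K+ ICN replicate 2 or Na+ ICN replicate 1. Groups share replicate numbers, but deviations of same-numbered K+ and Na+ libraries correlated by 0.0282, 0.0321 and 0.0483, too weakly to pair them; a replicate block gave 1165 calls, 995 of them shared, and each K+ library correlated best with its own number, a hint from the data and not the design. Depth limits low genes such as Arc, at 2.07 to 3.99 CPM with an SE of 0.25.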

Other observations

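Xist, the RNA of the inactive X chromosome, and the Y-linked Ddx3y were both present in every library. Xist ranged over 1202 to 1407 CPM in the 6 ICN libraries and Ddx3y over 26.4 to 33.2 CPM, and neither was called between the ions (edgeR adjusted p = 0.917 and 0.517). Calls also differed in number with gene span: of 5 equal groups by span, the longest held 202 higher and 188 lower with K+ and the shortest 53 and 82, while the median log2 difference was -0.0019 and 0.0017. By transcript length the longest group held 176 higher and 173 lower and the shortest 38 and 65. Count level, on which the power to call a gene depends, was not matched between these groups. Whether the calls depend on length itself was therefore not tested. In the groups by transcript length or GC content the medians lay between -0.0064 and 0.0039.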
